A study of Homo sapiens with 3 samples.

Results

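Translation factor genes, the genes of the initiation and elongation factors that bring ribosomes onto mRNA and move them along it, were compared between cells with an shRNA against obscurin and cells with a scrambled control shRNA. They were taken as the features of the array annotated to exactly 1 symbol starting with EIF or EEF and a digit. The EIF2AK kinases, the EIF4EBP genes, pseudogenes, antisense and divergent transcripts and a Y-linked gene were left out, 11 symbols in all. This left 55 genes on 131 features, all with a value on at least 2 of 3 arrays, among 16944 genes tested. The rule reads symbols and annotation only, but it was drawn up with earlier results of these data known.

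MCF10A, the line used, is a breast epithelial cell line that is immortal but forms no tumours. RNA of both cultures was hybridised together on each of 3 two-colour arrays. The obscurin shRNA-2 cells were labelled with Cy5, and the control shRNA-1 cells with Cy3. Both were kept in 1.5 ug/mL puromycin and had received 150 uM etoposide, a topoisomerase II poison, for 48 hours, so no untreated cells enter the comparison and 1 shRNA stands for the knockdown. The labels call the arrays independent replicates without saying whether cultures were separate, so the p-values measure the spread between these arrays. The dyes were not swapped. Obscurin itself was not analysed here, and ratios give no level with which to check the cell type.

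In initiation, eIF2 carries the initiator tRNA to the small ribosomal subunit and eIF2B recharges it with GTP. The large eIF3 complex organises the small subunit, and the eIF4 group binds the mRNA cap and unwinds the leader. In elongation, eEF1 delivers aminoacyl-tRNAs and eEF2 moves the ribosome by a codon. Phosphorylation of eIF2 under stress, and sequestration of eIF4E when mTOR is inactive, are the best known controls of this pathway.

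Values below are relative log2 ratios: the deposited log2 ratio minus the array's median over all features, with the features of a gene averaged. The direction of the ratio is not stated, and was read as obscurin shRNA over control shRNA, which is likely because the obscurin shRNA cells are channel 1. If it runs the other way, every sign and every order below turns round, and the lowest group or gene becomes the highest. The feature medians that were subtracted were 1.49, 1.28 and 1.39 on arrays 1, 2 and 3. A value of 0 is therefore a feature of middling ratio, not equal RNA in both cultures. The values were bimodal, with a narrow peak around the most repeated value, at 0.57, 0.69 and 0.61, and a broad lower range. The median of all genes tested was -0.52, with 64.8% of them below 0. The 9233 genes with 1 feature had a median of -0.45 (60.1% below 0), and the 7711 with several had -0.58 (70.5% below 0).

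The gene names rest on the place of each value in the feature list, and the data did not bear out that place for most of the list. Features of 234 other transcripts with at least 10 features each were compared by rank. The list was cut into 5 successive stretches of 9044 features. In the first, their intraclass correlation at the own place was 0.522 on array 2 and 0.450 on array 3, but -0.139 on array 1. With each value taken from 170 features earlier, it was 0.358 on array 1 in that stretch. Of the 15 stretches on the 3 arrays, 10 had the higher correlation 170 features earlier and 5 at the own place. Some choices rest on low values, such as 0.086 against 0.021 in the third stretch of array 3. Over the whole list the correlation was low at both places. It was 0.078, 0.107 and 0.105 on arrays 1, 2 and 3 at the own place, and 0.162, 0.147 and 0.123 from 170 features earlier. Values below are at the own place unless stated. The translation factor genes with each stretch at its better place are given afterwards, the other genes of the pathway at the own place only.

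Most translation factor genes lay below 0. Their median was -1.15, with 46 of 55 below 0 and 9 above, against a median of -0.52 over all genes tested. On arrays 1, 2 and 3 the median of the members was -0.90, -0.84 and -1.16, against -0.38, -0.36 and -0.34 for all genes. The members spread widely, between -3.09 and 1.45. Of the 55, 30 lay below 0 on every array with a value and 6 above 0 on every such array, while the background over all genes was 32.4% below and 20.4% above. None passed an adjusted p of 0.05 by limma in either direction, where the background was 0% (0 of 16944 genes) above and 0% below. At an unadjusted limma p under 0.05 there were 19 members below (34.5%) and 0 above, against a background of 19.7% below and 0.838% above.

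**Figure D1:**
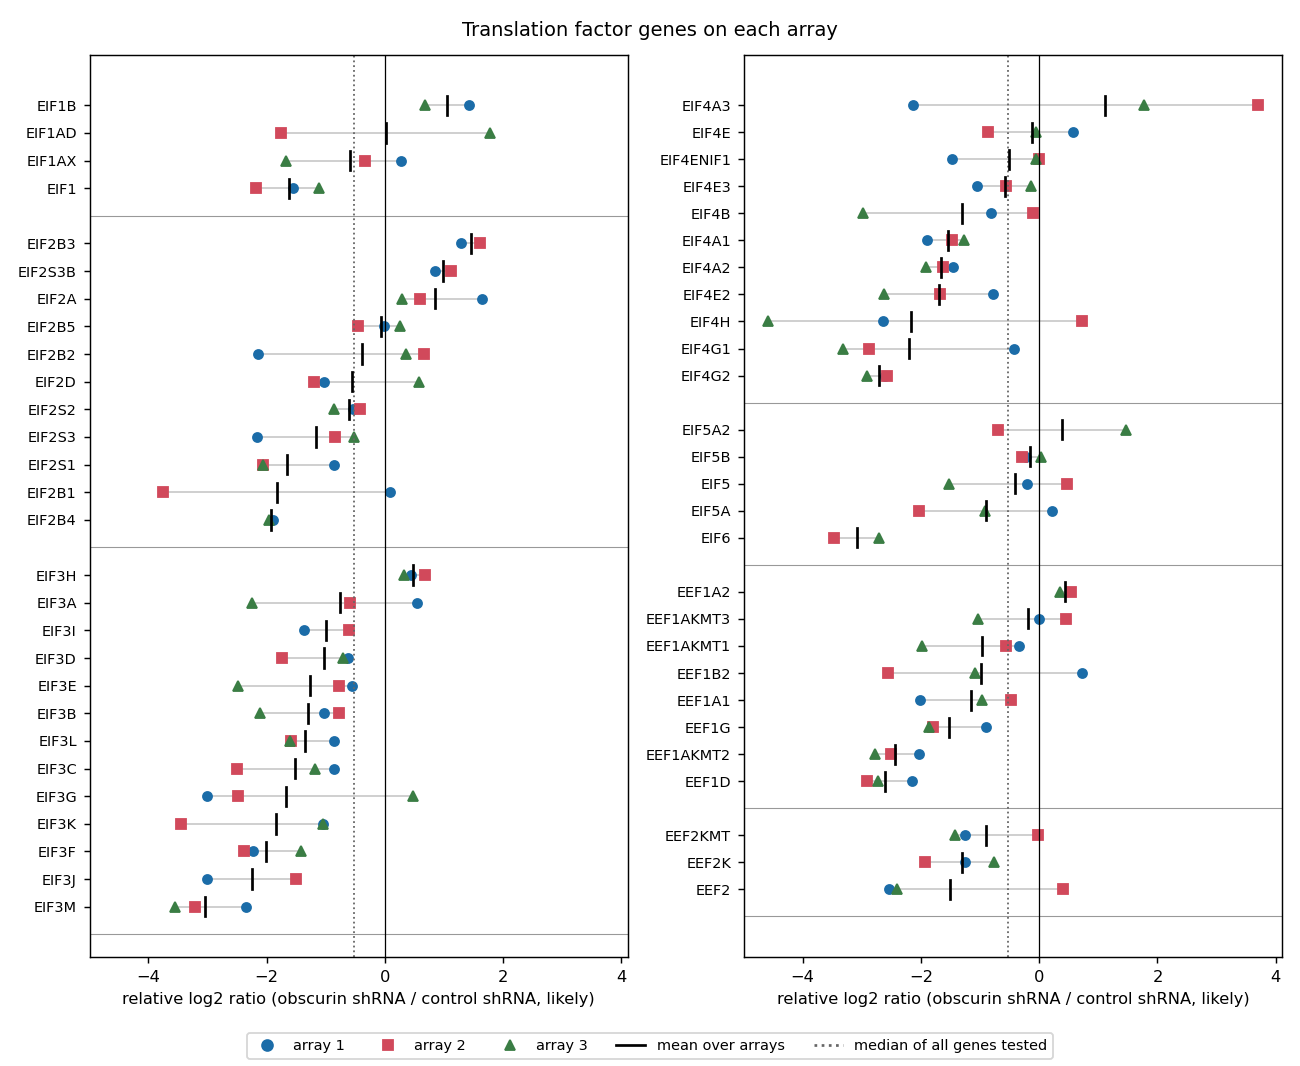
Relative log2 ratio (x axis) of each of the 55 translation factor genes on arrays 1, 2 and 3, with the mean over arrays as a black bar and the median of all genes tested, -0.52, as a dotted line. EIF3M, EIF4G2 and EEF1D sit below -2 on all 3 arrays, whereas EIF4A3 and EIF4H spread over more than 5 units.

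The groups stood at different medians. EIF4 genes had a median of -1.55 (10 of 11 below 0), EIF3 genes -1.35 (12 of 13 below), EEF1 genes -1.06 (7 of 8 below) and EIF2 genes -0.55 (8 of 11 below). The EIF2 medians were -0.53, -0.44 and -0.13 on arrays 1, 2 and 3, close to those of all genes. EIF3 genes had -1.03, -1.58 and -1.42, EIF4 genes -1.45, -0.88 and -1.91, and EEF1 genes -0.90, -1.18 and -1.47. On each array the EIF2 median was thus the highest of these groups, while EIF3, EIF4 and EEF1 overlapped each other. With the direction of the ratio turned it would be the lowest. The EIF2 group joins unlike genes by their symbols. Its 3 eIF2 subunits had a median of -1.17, with -0.85, -0.84 and -0.87 on arrays 1, 2 and 3, and its 5 eIF2B subunits had -0.38. The order also depended on the place of the values. With every value taken from 170 features earlier EIF2 was the lowest at -1.58, below EIF3 at -1.25, EEF1 at -1.15 and EIF4 at -0.52. The first stretch of the list, where the own place was borne out on arrays 2 and 3, was also taken alone. In it 2 EIF2 genes had a median of -1.74, 5 EIF3 genes -1.71, 4 EIF4 genes -1.30 and 4 EEF1 genes -2.34. The 2 EIF2 genes were EIF2A at 0.48 and EIF2S1 at -3.95, so their median describes neither. This subset holds fewer genes at the own place, array 1 included, and cannot show an effect of the place. Without array 3 the EIF4 median was -0.96, and without array 1 the EIF2 median was -0.31. The latter leaves out the EIF2 genes that lack a value on array 2 or 3. No test of these differences was made.

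**Figure D2:**
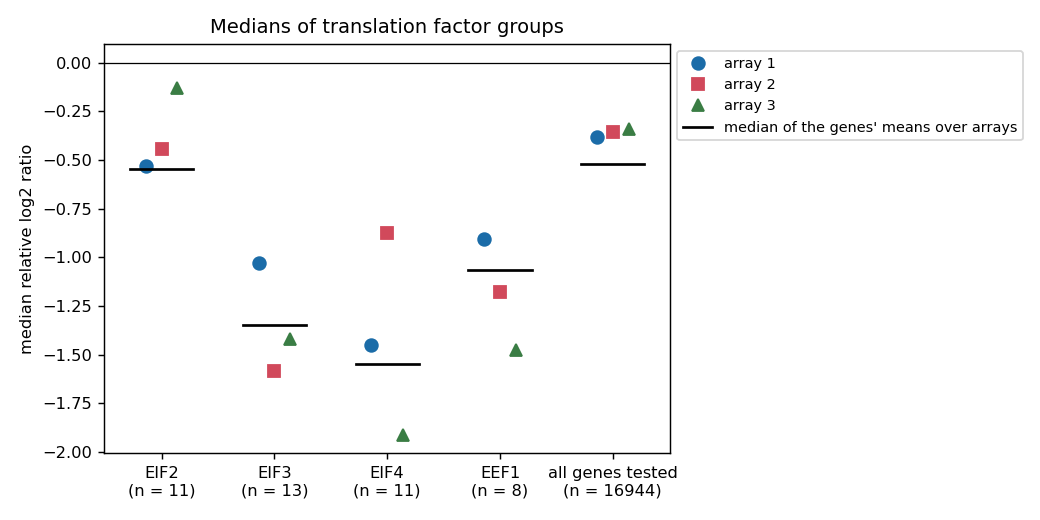
Median relative log2 ratio (y axis) of the EIF2, EIF3, EIF4 and EEF1 groups and of all genes tested on arrays 1, 2 and 3, with the median of the genes' means over arrays as a black line. The EIF2 medians lie between -0.53 and -0.13, near those of all genes, and the medians of the other groups lie at or below -0.88.

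Among the EIF2 genes, all 3 subunits of eIF2 were below 0 on every array, as was 1 of the 5 subunits of eIF2B. EIF2S1, the alpha subunit phosphorylated under stress, had -0.85, -2.07 and -2.06 on arrays 1, 2 and 3 (mean -1.66 ± 0.43 SE, adjusted p = 0.153 by limma). EIF2S3, the gamma subunit that binds GTP, had -2.16, -0.84 and -0.52, and EIF2S2, the beta subunit, -0.53, -0.42 and -0.87. The arrays do not rank these subunits alike: EIF2S3 was the lowest on array 1 and EIF2S1 on arrays 2 and 3. For EIF2S1 the arrays average different features. Its low feature, at -4.21 and -3.70 on arrays 2 and 3, had no value on array 1. Its other feature had -0.85, 0.07 and -0.41.

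The means of the eIF2B subunits ranged from -1.93 to 1.45. EIF2B5, the catalytic epsilon subunit, stayed near 0 at -0.01, -0.46 and 0.25. EIF2B2, the beta subunit, had -2.15 on array 1 but 0.66 and 0.35 on arrays 2 and 3. EIF2B1 had 0.08 and -3.75 on arrays 1 and 2, EIF2B3 1.29 and 1.62 on the same arrays, and EIF2B4 -1.89 and -1.97 on arrays 1 and 3. Outside these complexes, EIF2A, an initiator tRNA-binding protein distinct from eIF2, lay above 0 on all arrays at 1.64, 0.60 and 0.29 (mean 0.84 ± 0.43 SE, adjusted p = 0.362 by limma). EIF2D, which binds tRNA without GTP, had -1.02, -1.21 and 0.58, and EIF2S3B, a copy of EIF2S3, had 0.98 from arrays 1 and 2.

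Of the EIF3 genes, 10 of 13 lay below 0 on every array with a value. EIF3M, a PCI-domain subunit of eIF3, had -2.35, -3.21 and -3.55 on arrays 1, 2 and 3. Its mean of -3.04 ± 0.41 (SE, 95% interval -4.18 to -1.89) was the lowest of the group, below all but 3.74% of the genes tested, at an adjusted p of 0.0788 by limma. That is the smallest adjusted p of all genes tested, and several genes share it, EIF4G2, EEF1D and MTOR among them. EIF3F had -2.23, -2.38 and -1.42 (mean -2.01 ± 0.38 SE, adjusted p = 0.103 by limma). Both had all arrays below -1, having been named for their low means.

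EIF3K had -1.05, -3.45 and -1.04, with a mean of -1.85. Its array 2 value rests on 1 feature, which had 0.34 on array 1 and -3.285 on array 3. The other feature, at -2.44 and 1.20 on arrays 1 and 3, had no value on array 2. At the upper end, EIF3H was the exception of the group, above 0 on all arrays at 0.45, 0.67 and 0.32. These values rest on different features, neither with a value on all arrays. The first had 0.45 and -0.26 on arrays 1 and 3, the second 0.67 and 0.91 on arrays 2 and 3. EIF3A, the scaffold of the complex, had 0.55, -0.58 and -2.24, with opposite signs on arrays 1 and 3. EIF3D, which can bind the cap of some mRNAs, had -0.63, -1.74 and -0.71. The remaining subunits EIF3B, EIF3C, EIF3E, EIF3G, EIF3I, EIF3J and EIF3L had means between -2.25 and -0.99. Among these EIF3G had -3.01, -2.48 and 0.48, and without array 3 the mean of EIF3E was -0.66 instead of -1.27. The 5 subunits that make the core in yeast (EIF3A, EIF3B, EIF3C, EIF3G and EIF3I) had a median of -1.30, and the other 8 had -1.60. The arrays did not order them alike: the core had -1.03, -0.77 and -1.65 on arrays 1, 2 and 3 and the others -0.95, -1.66 and -1.42, so the core was the higher on array 2 only.

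EIF4 genes ranged from -2.70 to 1.11 in their means. EIF4G2, a relative of the scaffold eIF4G that lacks the binding site for eIF4E, had -2.62, -2.58 and -2.92 on arrays 1, 2 and 3 (mean -2.70 ± 0.32 SE, 95% interval -3.62 to -1.79, adjusted p = 0.0788 by limma). Its 3 arrays lay within 0.34 of each other. EIF4G1, the scaffold itself, had -0.42, -2.88 and -3.31, low on arrays 2 and 3 only. Each of these genes was measured by a single feature.

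The cap-binding protein EIF4E, on 7 features, had 0.57, -0.88 and -0.06, on both sides of 0. Its relatives EIF4E2 and EIF4E3 had means of -1.70 and -0.58. The helicases EIF4A1 and EIF4A2 lay below 0 on all arrays, with means of -1.55 and -1.67, whereas EIF4A3, a helicase of the exon junction complex, had -2.13, 3.70 and 1.77. EIF4H, a stimulator of the helicase, had -2.64, 0.72 and -4.58, and EIF4B, another stimulator, -0.81, -0.10 and -2.99. The mean of EIF4B was -1.30, and -0.46 without array 3. Its arrays average different features, and the 1 feature with a value on all arrays had -0.43, -2.77 and -3.07. EIF4ENIF1, which binds eIF4E and represses translation, had -1.47, 0.00 and -0.05. For EIF4A3 and EIF4H, the direction on array 2 was opposite to that on array 1.

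Among EEF1 genes the lowest were a subunit and a modifier of the complex. EEF1D, a subunit of the nucleotide exchange factor, had -2.16, -2.92 and -2.74 on arrays 1, 2 and 3 (mean -2.60 ± 0.36 SE, 95% interval -3.61 to -1.60, adjusted p = 0.0788 by limma). EEF1AKMT2, a lysine methyltransferase of eEF1A, had -2.04, -2.51 and -2.77 (mean -2.44 ± 0.35 SE, adjusted p = 0.0802 by limma). Both lay below -2 on every array, having been named for their low means.

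EEF1G, another exchange factor subunit, had -0.90, -1.80 and -1.86, and EEF1B2, the exchange factor subunit beta, 0.72, -2.57 and -1.09. The methyltransferases EEF1AKMT1 and EEF1AKMT3 had -0.35, -0.56 and -1.99, and 0.00, 0.45 and -1.04. For the tRNA carrier itself, EEF1A1 had -2.01, -0.48 and -0.96 on 6 features, and EEF1A2, its paralogue expressed in muscle and neurons, 0.54 and 0.35 on arrays 2 and 3. EEF1A1 has many near-identical copies in the genome, and these features may not tell it from them. The same may hold for EIF3C and EIF2S3, which have close copies. Whether the features separate such copies was not checked.

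EEF2 and its modifiers lay mostly below 0. EEF2, on 1 feature, had -2.55, 0.40 and -2.41, so array 2 stood apart. EEF2K, the kinase that inhibits eEF2, had -1.25, -1.94 and -0.76 (mean -1.31 ± 0.40 SE, adjusted p = 0.194 by limma), and EEF2KMT, a methyltransferase of eEF2, had -1.25, -0.02 and -1.43.

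The smaller initiation groups were mixed. EIF1, which guards start codon choice, had -1.55, -2.18 and -1.12 (mean -1.61 ± 0.38 SE, adjusted p = 0.134 by limma), and EIF1AX, its partner in scanning, 0.27, -0.34 and -1.68. EIF1B had 1.42 and 0.68 on arrays 1 and 3, while EIF1AD had -1.75 and 1.78 on arrays 2 and 3, of opposite sign. EIF5, which triggers GTP hydrolysis on eIF2, had -0.20, 0.47 and -1.52, and EIF5A, which helps elongation at difficult peptide bonds, 0.22, -2.03 and -0.92.

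EIF5B, the GTPase that joins the subunits, stayed near 0 at -0.22, -0.29 and 0.03 on 10 features. EIF6, which keeps the large subunit from joining too early, had -3.47 and -2.71 on arrays 2 and 3, the lowest mean of all members (-3.09 ± 0.50 SE, n = 2 arrays, adjusted p = 0.116 by limma). EIF5A2, a relative of EIF5A, had -0.71 on array 2 and 1.47 on array 3. Its 1 feature with a value on both arrays was above 0 on both, at 0.50 and 1.47. The other feature, at -1.91 on array 2, had no value on array 3.

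Features of a single gene spread widely. Where some had no value, the values of a gene on different arrays averaged different features. Over the 34 members with several features, the median range between features of a gene was 3.08, against 1.40 for the range between arrays of the gene's value, which is an average, and the first was the wider in 26 of 34. On array 2, EEF1D had the narrowest range of the genes with at least 4 features. Its 7 features with a value there lay between -3.16 and -2.66. Its remaining feature, at 0.26 and 0.54 on arrays 1 and 3, had no value on array 2. On array 1 its 7 lay between -6.26 and 0.37, and on array 3 its 8 features lay between -4.99 and 0.54. EIF4B was narrow on array 3, where its 4 features with a value lay between -3.17 and -2.75. For EIF5B, 6 to 8 features had a value on each array. They lay between -2.63 and 0.87 on array 1, and 1 or 2 features on each array were below -1. The mean near 0 thus joined features of the narrow peak with a few low ones.

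**Figure D3:**
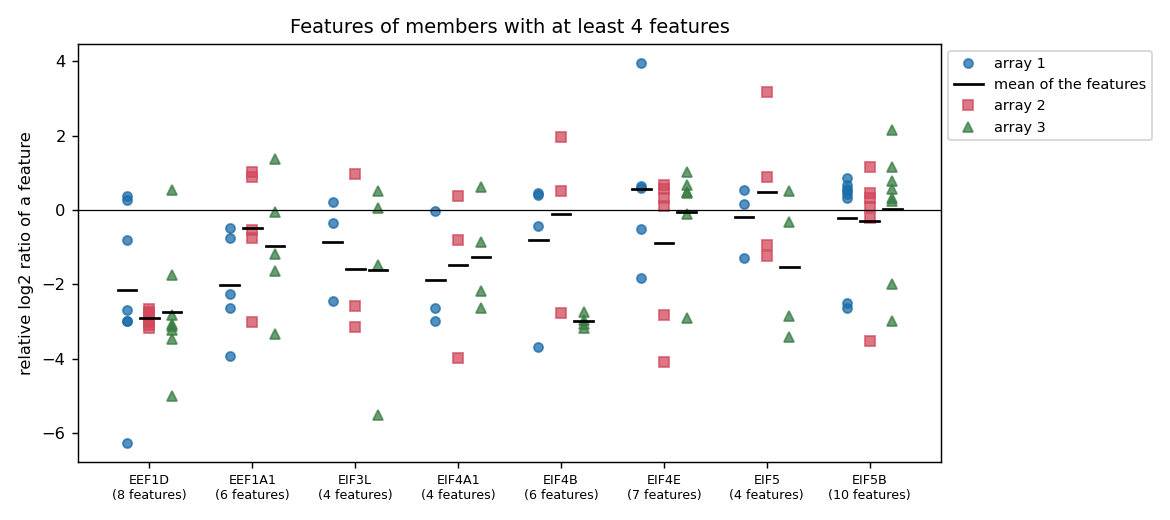
Relative log2 ratio (y axis) of each feature of the 8 members with at least 4 features, on arrays 1, 2 and 3, with the mean of the features as a black line. EEF1D features gather near -3 on array 2, while EIF4E and EIF5B features gather just above 0 with a few far below.

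Member features were more often low than named features in general. A share of 46.8%, 50.9% and 52.2% of them lay under -1 on arrays 1, 2 and 3, against 39.1%, 38.8% and 37.9% of all features with a gene name. Within 0.5 of the most repeated value lay 32.1%, 27.4% and 29.2% of member features, against 38.7%, 35.1% and 37.9% of all named ones. The difference varied along the feature list. In the first stretch, 14 of 21 member features on array 2 (66.7%) and 13 of 21 on array 3 (61.9%) were under -1, against 41.4% and 36.0% of named features there. On array 1, 6 of 16 (37.5%) were, against 41.5%. In the last stretch of array 2, 6 of 20 (30.0%) were, against 33.7%. The threshold of -1 and this division were chosen with the values known.

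**Figure D4:**
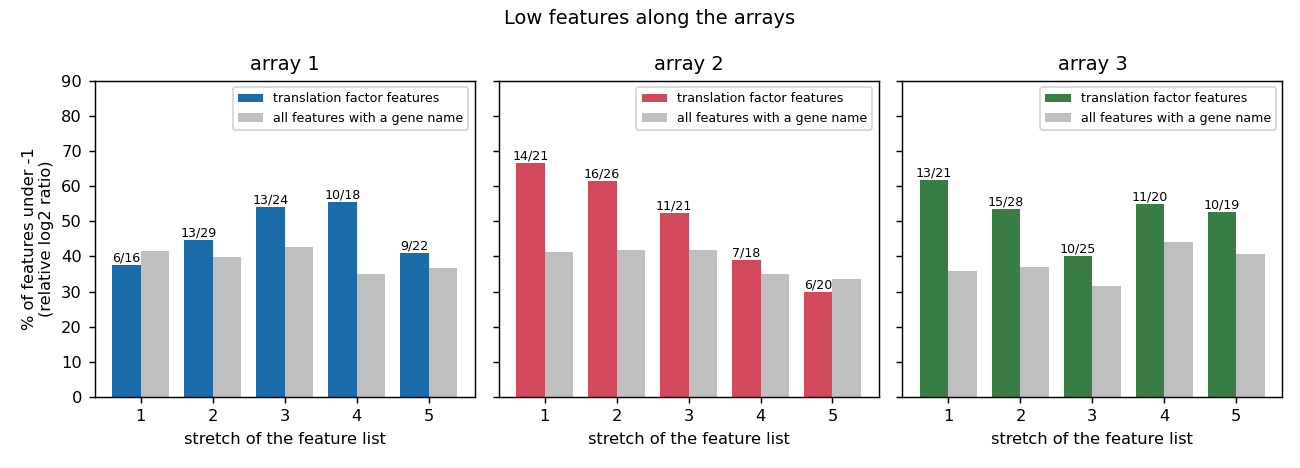
Percentage of features with a relative log2 ratio under -1 (y axis) in 5 successive stretches of the feature list (x axis) on each array, for translation factor features (coloured, with counts above the bars) and all features with a gene name (grey). The coloured bars stand highest above the grey ones in the first stretch of arrays 2 and 3, at 66.7% and 61.9%.

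With each stretch at its better place, judged from the other transcripts and added after the data were seen, 50 of 54 members lay below 0, with 65.3% of all genes below 0. Their median was -1.27, against -0.54 over all genes. The group medians were -2.16 for EEF1 (8 of 8 below), -1.60 for EIF3 (12 of 12), -1.01 for EIF4 (10 of 11) and -0.86 for EIF2 (10 of 11). On every array with a value, 30 of 54 were below 0, against 33.0% of all genes. No member passed an adjusted p of 0.05 by limma there either. The intraclass correlation of features of a member was 0.014, 0.081 and 0.177 on arrays 1, 2 and 3, against 0.042, -0.088 and -0.015 at the own place.

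Several single genes took other values there. EEF1A2 had -2.96, -3.64 and -2.34 at the better place, far from its own-place mean of 0.44. EIF4G1 had -2.39, -2.88 and -3.31, and EIF6 -4.56, -3.47 and -2.71, both low on all 3 arrays. EIF4G1, EIF6, EEF1AKMT2 and EIF3M have their features in the first and second stretches, where arrays 2 and 3 keep the own place, so that only their array 1 value can differ. Taken from 170 features earlier on every array, EIF4G1 had a mean of -2.65 and EIF6, on 2 arrays, of -4.12, whereas EEF1AKMT2 had -0.59 and EIF3M -0.79. EEF1D, with features in both kinds of stretch, had -2.10, -2.59 and -2.58 at the better place and a mean of -1.31 from 170 features earlier throughout. EIF2A turned to a mean of -0.62, EIF3H to -0.72 and EIF4A3 to -0.20, while EIF4E turned to 0.96 and EIF5 to 0.65.

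**Figure D5:**
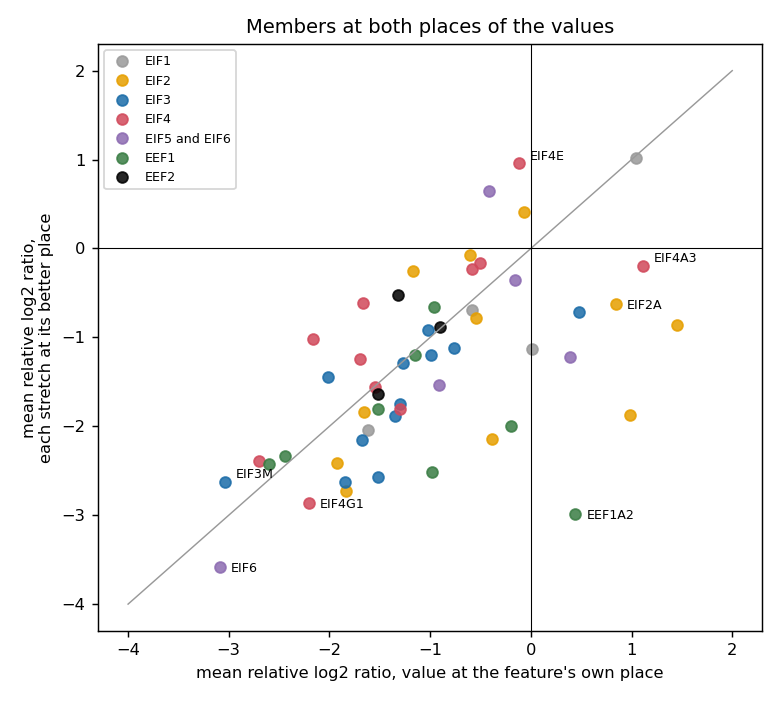
Mean relative log2 ratio of 54 members with values at the feature's own place (x axis) and with each stretch at its better place (y axis), coloured by group, with the line of equal values. EIF6, EIF3M and EIF4G1 are low on both axes, which share their values on arrays 2 and 3, and EEF1A2 moves by over 3 units.

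Many mRNAs of this machinery start with a 5′ terminal oligopyrimidine (TOP) tract, through which mTOR controls their translation. The members known as TOP mRNAs, EEF1A1, EEF1B2, EEF1D, EEF1G, EEF2, EIF3E, EIF3F, EIF3H and EIF4B, had a median of -1.30 with 8 of 9 below 0, and the other 46 members had -0.98 with 38 below. The TOP members were the lower on array 3 only, with a median of -1.86 against -1.04 for the others. On array 1 the TOP members had -0.90 and the others -0.94, and on array 2 the TOP members had -0.78 and the others -0.86. The starts of 10 members are shown to set genes with and without such a tract beside their ratios. Each line has 20 bases before and 10 from the annotated RefSeq start on GRCh38.p14, with a tract in capitals: a C at the first base followed by at least 4 further bases that are each C or T.
EEF1A1: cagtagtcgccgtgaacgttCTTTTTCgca
EEF2: tgagtgttgacgtcagcgttCTCTTCCgcc
EIF3F: gtcatttccgcttccgcctcCTTCTTTCTC
EIF4B: cgtgattgcctcatccgggtCTTTTgcgtt
EEF1B2: gttccgccggaagtggccccagcctcgagg
EEF1G: ccttctctcccgggcggcttactttgcggc
EIF3M: gcgtcgcgcggcccagttccCTTTTCCggt
EIF2A: aactctcacccgagcggtttCTCTTTCCgg
EIF4G2: gcggggaggttgtcggaagcacttccctaa
EIF6: actggttacttggtaagctggtgtgagggg

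These starts lie at chr6:73521023-73521052 (minus strand) for EEF1A1, chr19:3985454-3985483 (minus) for EEF2, chr11:7987317-7987346 (plus) for EIF3F and chr12:53006436-53006465 (plus) for EIF4B. EEF1B2 lies at chr2:206159589-206159618 (plus), EEF1G at chr11:62573882-62573911 (minus), EIF3M at chr11:32583811-32583840 (plus) and EIF2A at chr3:150546767-150546796 (plus). EIF4G2 lies at chr11:10807987-10808016 (minus) and EIF6 at chr20:35284708-35284737 (minus). EEF1B2 and EEF1G, both TOP mRNAs, showed no such tract at the annotated first base, which says only that these letters are not at that base.

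By this search on the coding strand, 12 of 44 matched members (27.3%) had a tract at the first base, as had 4.07% of all 35116 promoter windows. The members with a tract had a median relative log2 ratio of -1.24 (10 of 12 below 0), and the 32 without had -1.15 (27 below). EIF3M, with a tract, and EIF4G2 and EIF6, without, were among the lowest members, and EIF2A, with a tract, was above 0.

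Other genes of the pathway were described from lists drawn up with earlier results of these data known. Their values are given at the own place only, so the names carry the doubt about the place of the values described above. Their counts stand beside 64.8% of all genes below 0, and 19.7% below and 0.838% above at an unadjusted limma p under 0.05. Of 16 measured genes of initiation control, 13 lay below 0 (81.2%, median -0.97), with 4 at that p below (25%, near the 19.7% of all genes) and 0 above. MTOR, the kinase that releases eIF4E, had -3.11, -3.33 and -3.21 (mean -3.21 ± 0.32 SE, adjusted p = 0.0788 by limma). ATF4, the transcription factor made when eIF2 is phosphorylated, had -2.06, -3.04 and -3.12, and MKNK2, a kinase of eIF4E, -1.77, -2.94 and -2.97. All 3 lay below -1 on every array, but from each list the up to 3 genes with the smallest p were named. Low values on every array follow in part from that choice.

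Initiation cofactors had a median of -0.85 (12 of 13 below 0, or 92.3%, and 4 at that p below, or 30.8%, and 0 above). Among them CYFIP1, an eIF4E-binding protein, had -2.97, -3.09 and -3.09, PABPC1, the poly(A)-binding protein, -1.96, -1.92 and -2.07, and NCBP2, a nuclear cap-binding subunit, -2.79, -5.18 and -2.90. Elongation cofactors and termination factors were near 0 (median -0.09, 4 of 8 below, 1 at that p below, or 12.5%, and 0 above), both shares under those of all genes. DOHH, an enzyme that completes the hypusine of eIF5A, had -1.51, -1.62 and -5.67, so that its mean of -2.94 was -1.57 without array 3. The release factor GTPase GSPT2 had -1.18, -0.26 and -1.68, and TPT1 -1.13, -1.69 and -0.14.

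Cytosolic aminoacyl-tRNA synthetases had a median of -0.69 (12 of 17 below 0, or 70.6%, and 2 at that p below, or 11.8%, under the 19.7% of all genes, and 0 above). YARS1, the tyrosine enzyme, had -2.38, -2.40 and -3.14. RARS1, the arginine enzyme, had -4.74, -10.89 and -2.96, and NARS1, the asparagine enzyme, -0.58, -5.12 and -2.50. Array 2 was the lowest for both, and without it their means were -3.85 instead of -6.20 and -1.54 instead of -2.73. Mitochondrial translation factors had -0.72 (5 of 8 below, or 62.5%, near all genes, and 0 at that p in either direction). The elongation factor TUFM had 0.50, -3.56 and -2.91, with array 1 of opposite sign, and a mean of -1.99 that was -3.23 without array 1 and -1.20 without array 2. GFM1, another elongation factor, had -1.15 and -1.09 on arrays 1 and 3, and the release factor MTRF1L -1.04, -0.93 and 0.28. No gene of these 5 lists passed an adjusted p of 0.05 by limma.

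Across the members, arrays 2 and 3 had a rank correlation of 0.344 (48 genes), arrays 1 and 2 of 0.236 (49 genes) and arrays 1 and 3 of 0.227 (46 genes). Over all genes tested these were 0.494, 0.322 and 0.255. Genes of an array share its hybridisation and are no independent replicates.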

How the data were processed

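The values analysed are the log2 ratios of both channels in the deposited value table, 1 per feature and array. The base 2 was read from the values, and the sources used here do not give scanner, image analysis, normalization, centring or direction. Per the labels' protocols, 10 ug of RNA of each culture was reverse transcribed with aminoallyl-dUTP and coupled to Cy5 or Cy3. Of 45220 features, 36065, 35502 and 35674 had a value. Channel intensities were not used here, so dim spots could not be filtered. The number of arrays limits the precision.

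Features were named through the platform annotation and Entrez identifiers (GRCh38.p14 RefSeq gene table): 31332 had 1 symbol, 93 several and 13795 none, and of the first 31291 matched by identifier. Each array was centred on its feature median, features of a symbol were averaged, and genes with a value on at least 2 arrays were tested two-sided for a mean other than 0 (R 4.3.3, limma 3.58.1, lmFit and eBayes, Benjamini-Hochberg over 16944 genes, threshold 0.05). Repeated features were compared by the intraclass correlation of ranks. The displacement of 170 features, of those from 100 to 600, was where each array correlated best with itself.

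The members and lists were chosen with earlier results of these data known. Array values are given for up to 3 of the highest and 3 of the lowest members of each group with values on 3 arrays, and for the 3 genes of each further list with the smallest p. Values of other members, such as those on 2 arrays, were chosen after they were seen. Alternatives changed the zero point, scale, features, place of values, moderation and arrays. On simulated data with the real spread the test found 0 of 150 changed genes at a log2 ratio of 2 and 0 of 150 at 6. With a spread of 0.3 it found 150 of 150 at a log2 ratio of 2, with 41 false calls.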

Additional observations from a re-analysis of the deposited data

How the results depend on the processing

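Counts of genes and of members past the threshold stayed at 0 in both directions except at another zero point and without moderation. With each array's most repeated value as zero, 2 genes were above and 1392 below, among them 0 and 7 members (12.7% of members, 8.22% of genes). Without moderation 1 gene was below, no member. Since the simulated test found none at the real spread, these zeros do not show absence of change.

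The zero point set the sign of many values. With values as deposited, the medians of all members, EIF2, EIF3, EIF4 and EEF1 were 0.23, 0.84, 0.036, -0.16 and 0.32, with 0.86 for all genes, and 8 members above (14.5%) and 4 below (7.27%) had an unadjusted limma p under 0.05, against 30.7% of all genes above and 5.28% below. Set to 0 at the tested genes' median, all members, EIF2, EIF3 and EEF1 had -0.79, -0.19, -0.99 and -0.71, and with the most repeated value as zero all members, EIF2, EIF3, EIF4 and EEF1 had -1.78, -1.17, -1.97, -2.17 and -1.69. These settings shift all values of an array alike, and the median of all genes moves with them. That 39 of 55 members lay below that median in each is therefore no separate support.

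Taken from 170 features earlier, EIF2 had -1.58 and EIF4 -0.52, and with each stretch at its better place EIF2, EIF4 and EEF1 had -0.86, -1.01 and -2.16. In the first stretch alone, with 18 members, all members, EIF2, EIF3, EIF4 and EEF1 had -1.85, -1.74, -1.71, -1.30 and -2.34, and with each feature on its own all members had -0.97 and EEF1 -1.39. The last 2 settings hold fewer or other units. Values from 170 features earlier and at the better place left 53 and 54 members. Leaving out array 1, 2 or 3 left 48, 46 and 49 members. The cause of the shifts was not tested. Leaving out 1 array gave -1.31 to -0.99 for all members, -0.80 to -0.31 for EIF2, -1.59 to -1.22 for EIF3, -1.68 to -0.96 for EIF4 and -1.55 to -1.24 for EEF1.

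A mean of a gene has no counterpart with each feature on its own. The counts that follow cover 32 members, the up to 3 highest and 3 lowest of each group with values on 3 arrays. Other members given array values, such as those on 2 arrays, are not among them. For the 32, 14 settings gave 448 values, leaving aside the better place and the first stretch. Of these values, 404 kept their direction and side of the threshold, 5 passed it in the same direction and 39 turned. As deposited, these turned: EEF1AKMT1 0.42, EEF1AKMT3 1.19, EEF1B2 0.41, EEF2K 0.070, EEF2KMT 0.48, EIF1AX 0.80, EIF2B2 1.00, EIF2B5 1.31, EIF2S2 0.78, EIF2S3 0.21, EIF3A 0.63, EIF3D 0.36, EIF4E 1.26, EIF4ENIF1 0.88, EIF5 0.97, EIF5A 0.48 and EIF5B 1.22. Centred on tested genes, EEF1AKMT3 had 0.16, EIF2B5 0.29, EIF4E 0.24 and EIF5B 0.20, and at the most repeated value as zero EIF3H had -0.14. With the median of features, EIF4E had 0.43 and EIF5B 0.37. From 170 features earlier, EEF1AKMT1 had 0.49, EIF2A -1.58, EIF2B5 0.41, EIF3D 0.54, EIF3H -0.95, EIF4A3 -0.20, EIF4E 0.80, EIF5 0.40 and EIF5B 0.67. At the better place, chosen after seeing the data, EIF2A had -0.62, EIF2B5 0.41, EIF3H -0.72, EIF4A3 -0.20, EIF4E 0.96 and EIF5 0.65, and in the first stretch EIF1AX 0.63 and EIF5B 0.52. Outside the 32, EEF1A2, EIF1AD, EIF2B3, EIF2S3B and EIF5A2 also turned at the better place, to -2.98, -1.14, -0.86, -1.88 and -1.22. Leaving out an array turned EIF2B2 (-0.90 to 0.50), EIF2B5 (-0.23 to 0.12), EIF4A3 (-0.18 to 2.73), EIF4E (-0.47 to 0.25), EEF1AKMT3 (-0.52 to 0.23) and EIF5 (-0.86 to 0.13). No paired analysis was possible because each array already holds both cultures and its ratio is the pair.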
